A study of Bos taurus with 6 samples.

Results

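Caspases are the proteases that carry out apoptosis, the programmed removal of cells that also takes place in the mammalian blastocyst. In the mitochondrial route, cytochrome c leaves the mitochondria and binds APAF1 to build the apoptosome, a platform on which the initiator CASP9 becomes active and then cleaves executioner caspases. In the death receptor route the initiator is CASP8, and CASP2 is an initiator with an adaptor platform of its own. Inhibitor of apoptosis (IAP) proteins such as XIAP block caspases, and DIABLO, released together with cytochrome c, relieves that block. The genes described here are 8 members of this machinery, CASP2, CASP6, CASP8, CASP9, APAF1, CYCS (somatic cytochrome c), DIABLO and XIAP. They were taken by symbol from a table of 36075 genes, in which each symbol matched 1 row.

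The samples were bovine (Bos taurus) blastocysts, 3 control libraries and 3 MT-treated libraries, where MT is melatonin. Cumulus-oocyte complexes from slaughterhouse ovaries were matured in vitro for 22 h with MT at 1e-07 mol/L or without it, and all were then fertilized and cultured in the same way. MT was therefore given to the oocyte with its cumulus cells, and RNA was measured in the embryo. By the methods of the study, each library was made from a pool of 3 blastocysts, and the libraries of a group came from 3 separate in vitro production runs. The SDs, intervals and p-values below rest on the spread between these libraries. That spread was small, as for CASP6 with 165.88 to 170.42 TPM in control. Whether it holds all the variation between runs was not tested. Within a run the treatments were carried out side by side on oocytes drawn from a shared pool, but the labels do not say which libraries share a run. The methods name the Smart-seq2 protocol for amplified full-length cDNA, whereas a TruSeq kit stands in the sample labels, and which of them was used is not settled here. Values are TPM, transcript levels scaled by gene length and by library, which allows levels of different genes to be set beside each other. The file gives no read counts, so the depth behind each value is unknown.

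The libraries of the 2 groups differed in how many genes were listed above 0, from 8854 to 8953 in control and from 14372 to 14408 in MT-treated libraries. Of the 15363 genes above 0 in any MT-treated library, 42.0% had a listed 0 in the whole control group, among them genes that most cells use, such as LMNB1 (lamin B1). A value of 0 is therefore given only as listed at 0, and no fold change is given against it. All 6 trophectoderm markers looked up reached a mean of at least 1 TPM in MT-treated libraries and 5 in control, where CDX2 was listed at 0. All 3 inner cell mass markers reached that level in MT-treated libraries, but only POU5F1 did in control. Of 3 hypoblast markers none reached 1 TPM in control and 2 did in MT-treated libraries. Of 7 cumulus and granulosa markers only FSHR reached 1 TPM, with 17.2 to 19.2 TPM in control and 15.0 to 17.1 TPM in MT-treated libraries. The 8 oocyte markers were at 0 in control and summed to at most 1.44 TPM in MT-treated libraries. Of 3 blood cell markers HBB was at 0 in control and at 23.2 to 24.8 TPM in MT-treated libraries, and the other two were at 0. Of 3 markers of other epithelia, KRT5 had 77.5 to 79.0 TPM in control and 22.2 to 24.2 TPM in MT-treated libraries, and the others stayed under 0.05 TPM. Whether these differences bear on the genes below was not tested.

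The 8 genes fell into 3 classes. CYCS, CASP6 and DIABLO were above 0 in all 6 libraries. APAF1, CASP8, CASP2 and XIAP were listed at 0 in every control library and above 0 in every MT-treated library. CASP9 was listed at 0 throughout. A gene was tested, with limma on log2(TPM + 1), where 3 or more libraries reached 1 TPM, and 5 of the 8 met that condition. Of these 5, APAF1, CASP8, CYCS and DIABLO were higher after MT and CASP6 was lower, at an adjusted p under 0.05. Among all 11953 genes tested, 61.6% were called higher and 34.1% lower, so a call is the usual outcome in this comparison and the count of calls says little about these genes. APAF1 and CASP8 met the condition only through the MT-treated libraries, so in this fit they could come out only as higher or as not called, and no p-value is given for them. The groups did not overlap for any of the 5, and the same holds for 96.1% of all genes tested. In pooled embryos, a change in the number of cells of a type and a change in RNA per cell cannot be told apart.

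**Figure D1:**
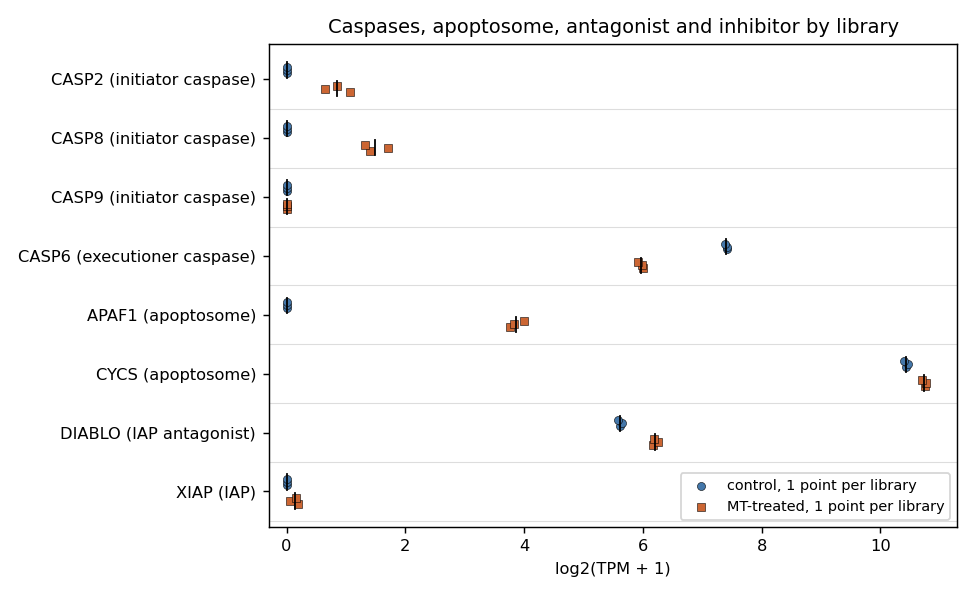
Level of each of the 8 genes in each library on the log2(TPM + 1) scale, with control as circles, MT-treated as squares and the group mean as a vertical line. CYCS lies at the right end in both groups, CASP6 is the only gene with its MT-treated points to the left of control, and CASP9 is at 0 in all 6 libraries.

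CYCS encodes cytochrome c, which carries electrons between respiratory complexes III and IV and, once released, starts apoptosome assembly. Control libraries had 1376, 1407 and 1353 TPM, against 1715, 1734 and 1672 TPM after MT. Every MT-treated library lay above every control library. The group means were 1379 ± 27.3 and 1707 ± 31.7 TPM (SD, n = 3 each), a 1.24-fold higher level. On the log2(TPM + 1) scale the difference was 0.31 with a standard error of 0.02 (95% confidence interval 0.26 to 0.36, adjusted p = 8.78e-06 by limma). CYCS was among the most abundant transcripts of the embryo, above 98.7% of detected genes in each control library and above 99.4% to 99.5% in MT-treated libraries. Of the 6925 tested genes above 0 in all libraries, 82.1% differed between the groups by at least as much, so its difference was small for this comparison. The testis form, CYCT, is a separate row of the table. Reads from near-identical copies of the CYCS sequence elsewhere in the genome could be assigned to either copy, so its level is uncertain to that extent.

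APAF1 encodes the scaffold of the apoptosome. Control libraries all listed it at 0, whereas after MT its levels were 12.6, 13.2 and 14.9 TPM. In the MT-treated libraries it lay near the middle of the detected genes, above 54.1% to 58.7% of them. Cytochrome c transcripts outnumbered those of APAF1 there by a ratio of 127 ± 12.9 in TPM (SD, n = 3).

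CASP9 encodes the initiator that docks on APAF1. It was listed at 0 in all 6 libraries, as were 54.8% of the 36075 genes in the table. Only 20337 of those genes have a symbol, as CASP9 does, and the share among them was not computed. The table therefore lists the scaffold and its ligand in MT-treated blastocysts without the caspase they recruit. A value of 0 in TPM does not show that the transcript was absent.

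CASP8 encodes the initiator of the death receptor route. Its level was a listed 0 throughout control, and 1.65, 2.28 and 1.51 TPM after MT. This level lay above only 23.4% to 26.8% of the detected genes in those libraries. With quantile normalization, which forces the same distribution on every library and gives the tied zeros of control an averaged value, the sign turned, with a log2 difference of -0.37, so the direction of CASP8 depends on the scaling.

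CASP2 encodes an initiator that responds to DNA damage and to abnormal chromosome or centrosome number. Control again listed 0 in every library, and the MT-treated values were 1.10, 0.57 and 0.80 TPM. Only 1 library reached 1 TPM, so it was not tested in the comparison above. XIAP, the X-linked inhibitor that binds CASP9 and executioner caspases, was likewise listed at 0 throughout control, with MT-treated values of 0.14, 0.04 and 0.12 TPM. The file rounds to 2 decimals, so these XIAP values carry at most 2 significant digits. For both genes the listed zeros of control placed all MT-treated libraries above all control libraries, so that separation was not tested. With no condition on level, both were called higher in a limma fit of the 16288 genes above 0 in any library, of which 54.5% were called higher. Both entered that fit only through the MT-treated libraries, so they could not be called lower and no p-value is given for them.

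The 4 genes that appear only in MT-treated libraries had the levels at which control zeros are common in this table. Among genes with an MT-treated mean from 10 to 20 TPM, the range of APAF1, 45.7% were at 0 in all control libraries. The share was 56.8% from 1 to 2 TPM, the range of CASP8, 56.0% from 0.5 to 1 TPM, the range of CASP2, and 58.1% under 0.5 TPM, the range of XIAP. It was 11.2% from 50 to 100 TPM, where CASP6 and DIABLO lie, and 0% from 1000 TPM upwards, where CYCS lies. Of the genes detected in a control library, 22.6% to 23.7% had under 1 TPM, against 20.5% to 20.7% in an MT-treated library. What lies behind the zeros was not tested.

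CASP6 encodes an executioner caspase that cleaves lamin A among other targets. It was the only one of the 8 genes that fell. Control levels were 170.4, 169 and 166 TPM, and MT-treated levels were 62.8, 62.7 and 59.7 TPM. Each MT-treated value was under 40% of each control value. The group means were 169 ± 2.37 and 61.7 ± 1.76 TPM (SD, n = 3 each), a level 2.73-fold lower. The log2(TPM + 1) difference was -1.43 with a standard error of 0.03 (95% confidence interval -1.50 to -1.37, adjusted p = 1.63e-08 by limma). Of the 6925 tested genes above 0 in all libraries, 36.8% differed by at least as much.

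DIABLO encodes the mitochondrial protein that binds IAP proteins and frees caspases from them. Its 47.9, 48.9 and 46.9 TPM of control stood against 70.9, 75.0 and 71.7 TPM after MT, with no overlap. The group means were 47.9 ± 0.990 and 72.5 ± 2.18 TPM (SD, n = 3 each), a 1.51-fold higher level. The log2(TPM + 1) difference was 0.59 with a standard error of 0.03 (95% confidence interval 0.51 to 0.66, adjusted p = 2.69e-06 by limma). At least as large a difference was found for 66.8% of the tested genes above 0 in all libraries. In the MT-treated libraries the TPM of XIAP was 0.00139 ± 0.000760 times that of DIABLO (SD, n = 3), so DIABLO was listed far above XIAP. This does not hold for all IAP genes, which were looked up after their values were seen. Mean levels there were 107 TPM for BIRC5, 14.0 for BIRC6, 3.56 for BIRC2 and 1.42 for BIRC3, and BIRC7 was at 0.

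The 5988 genes that reached 1 TPM in every library had a median log2 difference of -0.27. Setting each library on its own median level of those genes removed a shift of -0.48 between the groups. That shift is a difference of library medians, and need not equal the median of the gene differences. After this centring, CYCS was higher by 0.79, DIABLO was higher by 1.07 and CASP6 had a difference of -0.96 on the log2 scale. All 3 genes remained past the threshold of limma. The directions of CASP6, CYCS and DIABLO thus held under both scalings and under quantile normalization (-1.17, 0.35 and 0.87). With quantile normalization, higher calls fell from 64.4% to 51.1% of all calls, and the 5 tested genes split into 3 higher and 2 lower.

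The order of the levels within a library does not depend on how libraries are scaled. In control it was CYCS, CASP6 and DIABLO, with the other 5 genes at 0. In MT-treated blastocysts it was CYCS, DIABLO, CASP6, APAF1, CASP8, CASP2, XIAP and CASP9. The library ranges of neighbours did not overlap, apart from the genes at 0 in control. CASP6 and DIABLO thus changed places.

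Ratios within a library put this in figures for the 3 genes above 0 throughout, a choice made after their values were seen. CASP6 over DIABLO was 3.56, 3.46 and 3.53 without MT and 0.885, 0.836 and 0.833 with it, which is 4.13-fold lower. CASP6 over CYCS fell from 0.122 ± 0.00178 to 0.0362 ± 0.000443 (SD, n = 3 each), which is 3.38-fold lower. DIABLO over CYCS moved less, from 0.0348 ± 5.78e-05 to 0.0425 ± 0.00102 (SD, n = 3 each). The executioner was thus lower relative to both mitochondrial factors in MT-treated libraries. The range of the 3 control libraries and the range of the 3 MT-treated libraries were separate for each ratio. The levels of 96.1% of all genes tested were separate too, and ratios of other gene pairs were not examined. The separation therefore says little about these 3 ratios.

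**Figure D2:**
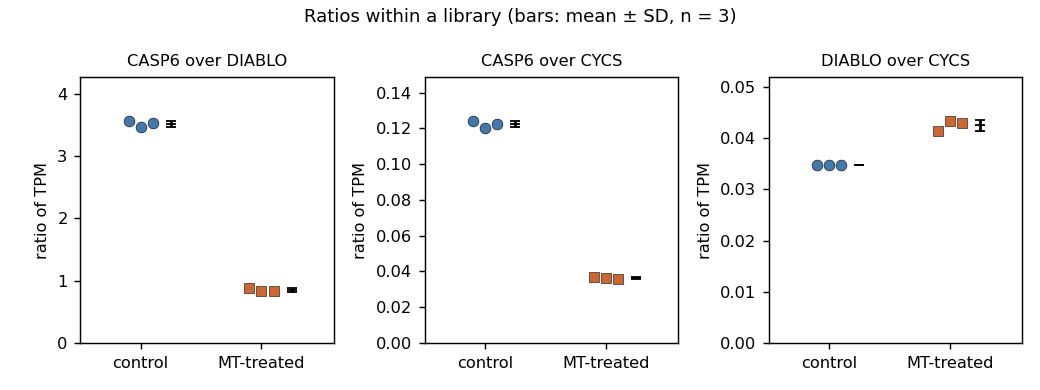
Ratios of TPM within each library for the 3 genes above 0 in all libraries, with 1 point per library and the mean ± SD (n = 3) beside the points, on axes that start at 0. CASP6 over DIABLO drops from about 3.5 to under 0.9, CASP6 over CYCS drops likewise, and DIABLO over CYCS is higher in MT-treated libraries.

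Other genes of the pathway were taken from a list of 60 genes in 5 roles, of which 56 were in the table and 43 were tested. Of these 43, 22 were higher after MT and 21 lower, and their median log2 difference was 0.13, against 1.12 over all genes tested. Of the 22 higher genes, 12 had a listed 0 throughout control. Those 12 met the condition for testing only through the MT-treated libraries, so their direction was fixed by it and no p-value is given for them. The split depended on the scaling, with 29 higher and 11 lower after median centring and 16 higher and 24 lower after quantile normalization. Higher calls made up 51.2% of the calls in this list with TPM as listed, 72.5% after median centring and 40% with quantile normalization. Over all genes those shares were 64.4%, 73.5% and 51.1%, so the split moved with the scaling there too. The counts per role below were not tested against these shares. Direction and call held under all 3 scalings tried for 26 of the 43 genes. Genes named below are the largest differences of each role, and those named in addition were chosen after their values were seen.

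Among the other caspases of the list, CASP1, CASP4 and CASP14, the inflammatory and skin caspases, were named after their values were seen. They were at 0 throughout, as CASP9 was.

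Of 7 tested death receptor genes and adaptors, 6 were higher and 1 was lower (4 and 2 with quantile normalization), and 5 of the higher genes had no control library above 0. CRADD, the adaptor that brings CASP2 to its platform, was listed above 0 after MT only, at 11.4, 13.2 and 13.1 TPM. TRADD, an adaptor of the tumour necrosis factor receptor, was likewise listed above 0 after MT only, at 11.2, 11.2 and 12.2 TPM. TNFRSF21, a death domain receptor, fell from 15.3 ± 0.921 to 8.91 ± 0.752 TPM (SD, n = 3 each, adjusted p = 7.69e-05 by limma). FADD, the adaptor that recruits CASP8 and named in addition, rose from 55.7, 53.1 and 58.6 TPM to 104, 98.7 and 104 TPM (limma, adjusted p = 2.14e-06). FAS, FASLG and TNFRSF1A, also named in addition, were at 0 in all libraries. In MT-treated blastocysts the adaptors CRADD and FADD were thus listed above the caspases they recruit, whereas FAS and its ligand were above 0 in neither group.

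Of 6 tested IAP genes and antagonists, 5 were higher and 1 was lower, but with quantile normalization 2 were higher and 4 lower. HTRA2, a mitochondrial protease that binds IAP proteins as DIABLO does, rose from 1.23, 1.04 and 1.09 TPM to 9.77, 10.3 and 10.9 TPM (limma, adjusted p = 4.24e-08). Its sign turned under quantile normalization, to a log2 difference of -0.57. SEPTIN4, of which 1 isoform antagonizes XIAP, had 7.32, 6.85 and 6.87 TPM after MT and a listed 0 in control. BIRC2, an IAP protein that acts as a ubiquitin ligase, fell from 6.27 ± 0.321 to 3.56 ± 0.148 TPM (SD, n = 3 each, adjusted p = 1.41e-05 by limma).

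Of 14 tested regulators of cytochrome c and the apoptosome, 5 were higher and 9 lower, but the split turned to 10 higher and 3 lower after median centring. AVEN, which binds APAF1 and limits caspase activation, was listed above 0 after MT only, at 14.4, 14.3 and 14.1 TPM, close to the level of APAF1 itself. ENDOG, a mitochondrial nuclease, was also above 0 after MT only, at 6.64, 5.85 and 7.28 TPM. APIP, a methionine salvage enzyme that also binds APAF1, fell from 314 ± 8.55 to 103 ± 3.46 TPM (SD, n = 3 each, adjusted p = 2.50e-08 by limma). CAAP1, an inhibitor of caspase activity, fell from 24.0 ± 1.34 to 10.5 ± 0.906 TPM (SD, n = 3 each, adjusted p = 7.28e-06 by limma).

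Of 15 tested caspase substrates and effectors, 6 were higher and 9 lower, against 8 and 6 after median centring and 4 and 11 with quantile normalization. DFFA, the inhibitor that caspases cut to free the apoptotic nuclease, stood at 31.2, 32.6 and 36.0 TPM after MT and at a listed 0 in control. LMNB1, at 0 in control as stated above, reached 19.95, 21.0 and 21.4 TPM after MT. In contrast, LMNA (lamin A/C), a target of CASP6, fell from 128 ± 2.29 to 15.3 ± 1.33 TPM (SD, n = 3 each, adjusted p = 2.29e-08 by limma). XKR8, a lipid scramblase that caspases switch on, had 30.8, 29.4 and 30.1 TPM in control against 0.12, 0.11 and 0.04 TPM after MT. XKR8 met the condition for testing only through the control libraries, so it could not be called higher and no p-value is given.

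**Figure D3:**
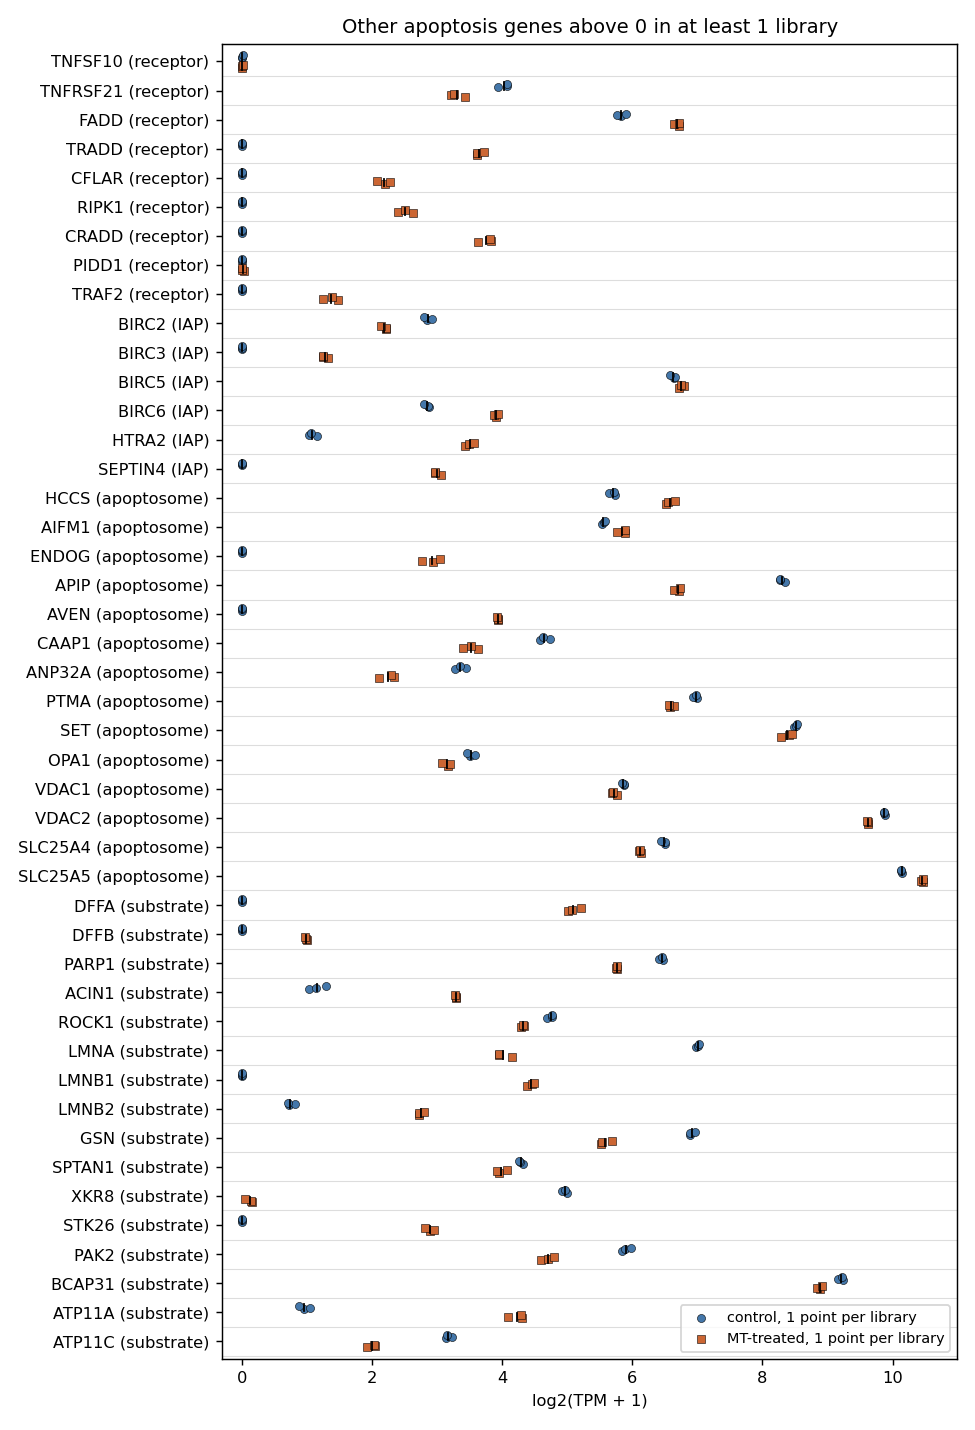
Level of each of the 45 pathway genes outside the caspases that were above 0 in at least 1 library, on the log2(TPM + 1) scale, with control as circles, MT-treated as squares and group means as vertical lines. The word beside a gene is its role (IAP includes antagonists, apoptosome includes regulators of cytochrome c, receptor includes adaptors), and 14 genes have all control points at 0 with at least 1 MT-treated point above it.

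For 4 of the 5 tested genes, the gene with the most similar values is given, found by the Euclidean distance over the 6 values of log2(TPM + 1) among tested genes with a symbol. It was DNAJA2 for CASP6 (distance 0.15), ASGR1 for CASP8 (0.11), SH3RF2 for APAF1 (0.05) and TMEM178B for DIABLO (0.15). The distances rest on 6 libraries in 2 groups, so they mainly reflect the level in each group.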

How the data were processed

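RNA of bovine blastocysts was measured in 6 libraries, 3 control and 3 MT-treated, grouped by their labels. The authors deposited TPM values per Ensembl gene, rounded to 2 decimals. Per the study's methods and the submitters' processing notes, reads were cleaned with fastp and FastQC 0.11.9, aligned with STAR 2.7.9a and counted with featureCounts (Subread 1.6.3). The methods give the bovine assembly as ARS-UCD1.3 and the notes as ARS-UCD1.2, so no coordinates are printed. How counts became TPM is not given in the sources used here.

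Here log2(TPM + 1) was fitted with limma 3.58.1 (R 4.3.3; lmFit, eBayes with trend), without a replicate block, over genes that reached 1 TPM in 3 or more libraries. Adjusted p-values are Benjamini-Hochberg values over all genes tested, with a threshold of 0.05. The fit was tested on simulated data. Alternatives tried were no filter, a minimum of 5 TPM, a pseudocount of 0.1, 3 other scalings, no trend, a replicate block and each library left out. The 8 genes, the pathway list and the marker lists were chosen with earlier results of these data known. Every one of the 8 genes is named. Of the pathway list, up to 2 called genes per direction and role are named, and some genes are not reported here. Figures were drawn with matplotlib 3.10.9.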

Additional observations from a re-analysis of the deposited data

How the results depend on the processing

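Of the differences of the 5 tested genes, CASP6, CYCS and DIABLO kept their direction and their call under all alternatives that could be fitted. APAF1 and CASP8 were at 0 in control, so a kept direction says nothing of their stability, and with quantile normalization the log2 difference of CASP8 was -0.37. With that scaling 2 of the 5 genes were called lower in place of 1. CASP8 could not be fitted at a minimum of 5 TPM. Under median centring 11 of the other pathway genes were called lower in place of 21. Among all genes, the counts of higher and lower calls stayed within 1.5 times of 7367 and 4071 under each alternative. CASP6 over CYCS and DIABLO over CYCS moved to log2 differences of -1.52 and 0.51 with quantile normalization, from -1.76 and 0.29. Libraries were left out with the tested genes held fixed, and no call of the 5 genes was lost. With the replicate block 4 of the genes were called higher and 1 lower, as without it. The deviations of same-numbered libraries correlated at 0.09, -0.00074 and 0.15 over 5988 genes, and the labels do not tie the numbers to the production runs that the groups shared, so the numbers were not taken to pair the libraries. The ratios planned between other pairs of the 8 genes each held a gene at 0 in control and were not compared. The depth is unknown, which limits what a listed 0 can show.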
